A study of Mus musculus with 4 samples.

Results

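The 8 genes described here encode ligands and receptors of the neurotrophin and GDNF families: the ligands Bdnf and Ntf3, the neurotrophin receptors Ntrk2, Ntrk3 and Ngfr, and the GDNF-family receptors Ret, Gfra1 and Gfra2. They were chosen by name, as 8 of the 31899 genes listed in every library. The posterior part of the substantia innominata, in the basal forebrain, was microdissected from wild-type mice at 8 weeks and its nuclei were sequenced in droplets. There were 2 libraries from males and 2 from females, with no treatment named, and the stated aim was to measure sex differences in the neurons. Whether libraries of the same sex are from different animals is not stated, so a p-value here reflects the spread among libraries, which may be technical.

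Neurotrophins are secreted proteins that bind Trk receptor tyrosine kinases with high selectivity and share the receptor p75, encoded by Ngfr. Ligands of the GDNF family bind a GFR-alpha co-receptor held at the membrane by a lipid anchor, and the complex then engages the tyrosine kinase Ret. Basal forebrain cholinergic neurons are known for carrying p75, and Bdnf is a ligand of Ntrk2.

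Nuclei were classed by the raw UMI (unique molecular identifier) counts of a few genes that are not among the 8, and nuclei that met the rules of more than 1 class were dropped. This left 376 cholinergic, 13549 GABAergic, 1073 glutamatergic, 819 astrocyte, 4560 oligodendrocyte, 795 oligodendrocyte precursor (OPC) and 754 microglia nuclei of the 38868 kept. Of 8829, 8577, 10881 and 10581 nuclei kept in male 1, male 2, female 1 and female 2, the rules left 1730, 1785, 5188 and 4888 without a class. Median UMIs a nucleus were 10406 and 10015 for the males, and 4192 and 3806 for the females. Depth, software version and gene list changed with sex and cannot be told apart from it. Software version and gene list also differed between the 2 females. Both males listed 33696 genes, female 1 listed 55357 and female 2 listed 32285. The male libraries had 23 barcodes in common, the female libraries 35, and libraries of different sex 0. The barcodes, too, thus changed with sex, and why was not tested.

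Levels are UMIs of a gene in 1000000 UMIs summed over the nuclei of a class in 1 library, written CPM, and are not comparable between genes. The classes were checked against markers that the rules did not use. Lhx8, a transcription factor of forebrain cholinergic neurons, stood at 110 to 140 CPM in cholinergic and 10.2 to 16.4 CPM in GABAergic sums. Slc1a2 in astrocytes (2840 to 4966 CPM), Mbp in oligodendrocytes (2743 to 3911), Vcan in OPCs (508 to 851) and Cx3cr1 in microglia (369 to 596) were each far above their GABAergic level. Most nuclei of the glutamatergic class carried Slc17a6 without Slc17a7.

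Values for 4 libraries are given in the order male 1, male 2, female 1, female 2. Class differences are log2 folds ± SE from the edgeR quasi-likelihood test over the 4 libraries, each class against the mean of the logs of the other classes, so a class near 0 pulls that mean down. A gene was called at a Benjamini-Hochberg adjusted p under 0.05 and at least a 2-fold difference. Of the 8 genes, 6 passed the filter on low counts, Ngfr and Bdnf through the class where they are high, and Ntf3 and Ret did not.

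The data bear on Ngfr and Ntrk2 as receptors that stand apart in cholinergic nuclei and in astrocytes, though not as the only such receptors. The sequence before their start sites is shown, from RefSeq on GRCm38.p6. The 2 were chosen after motif counts were seen, from the genes with a single listed start. Capitals mark the GC box GGGCGG. The Ngfr stretch is chr11:95587736-95587948 on the minus strand, without the bases inside an annotated exon, and the Ntrk2 stretch is chr13:58806319-58806568 on the plus strand.
Ngfr: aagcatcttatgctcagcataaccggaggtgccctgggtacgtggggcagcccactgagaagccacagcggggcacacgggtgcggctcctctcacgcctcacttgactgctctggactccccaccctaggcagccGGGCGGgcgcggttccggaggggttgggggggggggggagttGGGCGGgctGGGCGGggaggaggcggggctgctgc
Ntrk2: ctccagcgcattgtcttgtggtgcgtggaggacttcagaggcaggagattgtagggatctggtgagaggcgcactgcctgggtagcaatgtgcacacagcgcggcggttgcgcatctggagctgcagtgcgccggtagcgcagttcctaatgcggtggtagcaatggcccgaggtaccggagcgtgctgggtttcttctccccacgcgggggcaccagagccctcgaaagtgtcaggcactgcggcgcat
The Ngfr stretch of 213 bases held 3 GC boxes and the Ntrk2 stretch of 250 bases held 0, counted on both strands. The full Ngfr window of 250 bases held 4. Gfra1, which also has a single listed start, held 0 and is not shown, so the contrast of Ngfr with Ntrk2 is a picked one. A GC box was present in 32.7% of 32851 promoter windows of 250 bases. The same search for TAATTA (4.84% of windows), CACGTG (6.02%), TGACGTCA (1.55%) and TGACG (17.8%, which TGACGTCA contains) found 0 in both stretches. Promoters were matched for 5 of the 8 genes.

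Among the ligands, Bdnf was highest in glutamatergic nuclei. Its gene lies at chr2:109674700-109727007 on the plus strand of GRCm38. Bdnf stood at 31.6, 24.0, 28.2 and 37.2 CPM in glutamatergic sums. In GABAergic sums Bdnf stood at 2.67, 2.19, 2.49 and 2.35 CPM. Every glutamatergic value was above every value of the other 6 classes, whose highest was 7.99 CPM in microglia of female 2. The glutamatergic log2 fold was 3.27 ± 0.20 (edgeR adjusted p = 2.8e-14), in a contrast where 5.62% of 12901 genes were called higher. Since Bdnf entered that fit through this class, the fit without the filter on low counts is given too, with a log2 fold of 3.29 ± 0.19 (edgeR adjusted p = 3.3e-66). Shares of glutamatergic nuclei with a Bdnf UMI were 22.4% (95% exact Clopper-Pearson interval 18.3 to 27.0), 19.0% (15.2 to 23.2), 13.8% (8.63 to 20.5) and 22.0% (15.8 to 29.3), and in GABAergic nuclei, of like depth, 2.69%, 2.12%, 1.30% and 1.65%. All such intervals cover counting error only.

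The Bdnf level was also split by the transporter that placed a nucleus in the class, a split made after values were seen and given without a test. Nuclei with at least 2 Slc17a6 UMIs and fewer than 2 of Slc17a7 held Bdnf at 36.5, 26.1, 29.8 and 38.9 CPM. Nuclei with at least 2 Slc17a7 UMIs and fewer than 2 of Slc17a6 were few (36, 27, 2 and 22). They held 3, 9, 0 and 4 Bdnf UMIs, or 4.77, 16.9, 0 and 23.7 CPM. Nuclei without a class held Bdnf at 15.7, 13.2, 8.52 and 7.88 CPM, above the GABAergic level in each library, and those with a single Slc17a6 UMI at 35.8, 28.9, 17.7 and 21.1 CPM. Those with no UMI of either transporter held 10.3, 8.49, 7.39 and 6.38 CPM, also above the GABAergic level in each library.

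Bdnf was called lower in cholinergic nuclei, at 0.602, 1.14, 1.90 and 3.14 CPM, which are 1, 2, 2 and 3 UMIs. The cholinergic log2 fold of Bdnf was -1.69 ± 0.49 (edgeR adjusted p = 0.0061), where 9.12% of genes were called lower. Without male 1 the edgeR adjusted p for Bdnf was 0.058 (log2 fold -1.40). Astrocytes, OPCs, microglia and oligodendrocytes held 0.00 to 7.99 CPM of Bdnf, a range that holds all 4 cholinergic values.

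Ntf3 encodes neurotrophin-3, the preferred ligand of Ntrk3, and lies at chr6:126101412-126166910 on the minus strand. It was sparse. GABAergic sums held Ntf3 at 1.36, 1.34, 1.25 and 1.08 CPM, from 77, 72, 24 and 23 UMIs. Glutamatergic sums held it at 2.43, 2.38, 1.09 and 2.97 CPM, from 13, 13, 1 and 4 UMIs. The glutamatergic values were above the GABAergic ones in 3 libraries and below in female 1, and the other 5 classes held at most 2 Ntf3 UMIs in any library. Ntf3 entered the test only without the filter on low counts, where it was called higher in GABAergic (edgeR adjusted p = 0.0092) and glutamatergic nuclei (edgeR adjusted p = 8.5e-05). These fits rest on classes at or near 0 UMIs.

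Ntrk2, which encodes TrkB, was highest in astrocytes. It lies at chr13:58806569-59133970 on the plus strand, and gene counts do not separate its full-length and truncated isoforms. Astrocyte sums held Ntrk2 at 1139, 1178, 1338 and 1010 CPM. GABAergic sums held 540, 530, 698 and 496 CPM. All 4 astrocyte values were above every value of the other classes. The astrocyte log2 fold of Ntrk2 was 1.60 ± 0.08 (edgeR adjusted p = 6.8e-18), where 12.8% of genes were called higher.

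The difference was also present per nucleus at matched depth. After nuclei were thinned to 2000 UMIs, an alternative chosen after the data were seen, 85.0%, 86.8%, 90.1% and 87.5% of astrocytes had an Ntrk2 UMI, with intervals between 78.2% and 94.0%. In GABAergic nuclei the thinned shares were 61.4%, 60.4%, 67.0% and 55.3%, with intervals between 53.4% and 68.7%. Nuclei too shallow to thin numbered 6, 3, 61 and 93 astrocytes and 2, 2, 53 and 34 GABAergic nuclei. Without thinning the Ntrk2 shares were 95.9%, 97.8%, 93.8% and 84.4% in astrocytes and 97.9%, 97.4%, 89.9% and 86.4% in GABAergic nuclei, which do not set the classes apart.

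Below astrocytes, the Ntrk2 ranges of GABAergic (496 to 698 CPM), glutamatergic (434 to 608), OPC (424 to 554) and cholinergic nuclei (348 to 428) overlapped from each to the next. The cholinergic and GABAergic ranges did not overlap. Within each library cholinergic Ntrk2 was below the GABAergic value, at a ratio of 0.793, 0.656, 0.587 and 0.729. Oligodendrocytes (199 to 331 CPM) and microglia (213 to 384) were lowest for Ntrk2, with log2 folds of -1.01 ± 0.09 (edgeR adjusted p = 4.1e-11) and -1.14 ± 0.10 (edgeR adjusted p = 5.2e-11). Genes called lower made up 4.23% in oligodendrocytes and 7.39% in microglia. The oligodendrocyte fold of Ntrk2 fell short of 2-fold under 4 alternatives, and the microglia fold was -0.88 with scaling by total count only.

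Ntrk3 encodes TrkC and lies at chr7:78175959-78738012 on the minus strand. OPC sums held Ntrk3 at 659, 537, 715 and 491 CPM, GABAergic sums at 561, 550, 654 and 534, and glutamatergic sums at 503, 503, 554 and 539. These 3 classes overlapped. Cholinergic nuclei held 412, 385, 486 and 411 CPM, lower than the GABAergic value in each library. Relative to the mean of the logs of the other classes, Ntrk3 passed the adjusted p but not the 2-fold limit in OPCs (0.78 ± 0.08, edgeR adjusted p = 6.1e-10) and GABAergic nuclei (0.76 ± 0.07, edgeR adjusted p = 1.2e-10). Ntrk3 was called lower in microglia, at -1.02 ± 0.10 (edgeR adjusted p = 1.2e-10), a fold that fell short of 2-fold under 5 alternatives.

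Transcripts of neurons were present in the glial sums, and their level is given beside the glial values of the receptors. In oligodendrocytes the neuronal genes Meg3, Rbfox3, Snap25 and Syt1 stood at 25.4% to 45.3% of their GABAergic level, and Ntrk2 at 37.5% to 52.6% and Ntrk3 at 33.1% to 41.3%. In microglia the 4 neuronal genes stood at 25.5% to 58.9%, Ntrk2 at 39.5% to 55.1% and Ntrk3 at 33.4% to 52.1%. Oligodendrocyte Ntrk2 was above the highest of the 4 neuronal genes in every library, and Ntrk3 in male 2. Microglia Ntrk2 was above them in male 1 and female 2, and Ntrk3 in no library. What part neuronal transcripts had in these levels was not tested. In astrocytes the neuronal genes stood at 14.1% to 37.5%, Ntrk3 at 37.7% to 55.0% and Ntrk2 at 192% to 222%. In OPCs the neuronal genes stood at 13.7% to 53.2%, Ntrk2 at 75.1% to 105% and Ntrk3 at 91.9% to 117%.

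**Figure D1:**
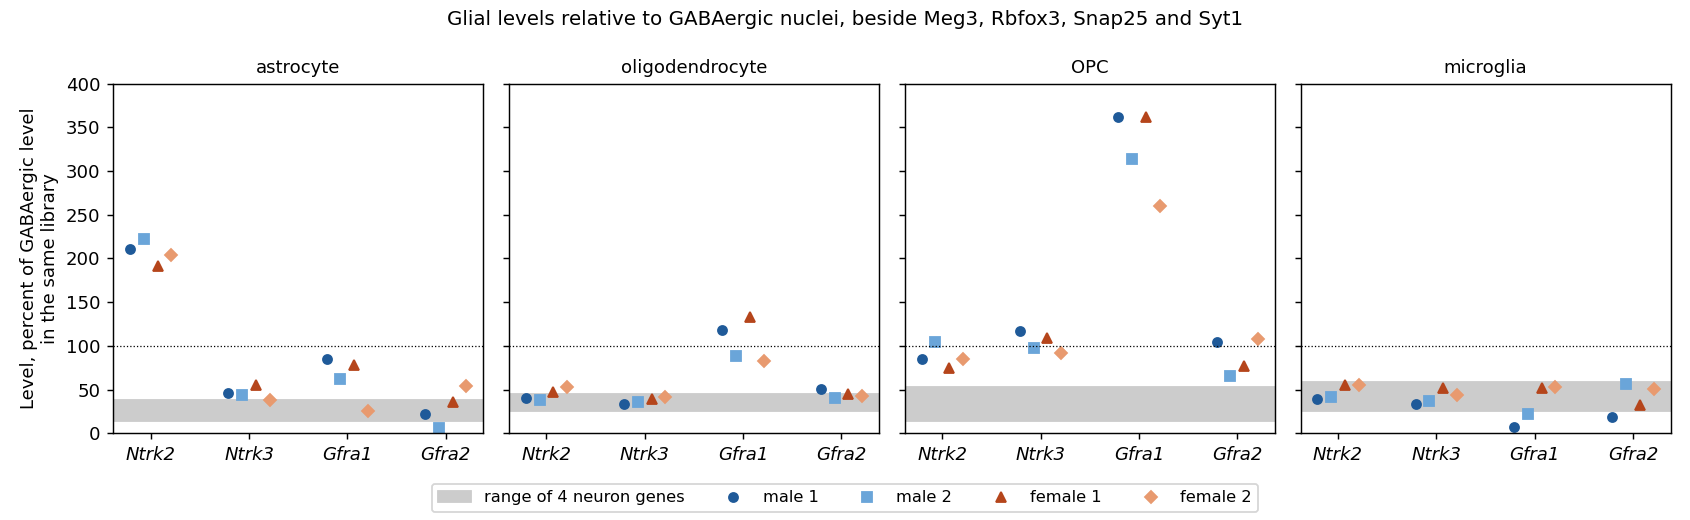
Level of Ntrk2, Ntrk3, Gfra1 and Gfra2 in each glial class as a percent of the GABAergic level of the same library (vertical axis), 1 point per library, with the range of 4 neuronal genes over the libraries in grey and 100% dotted. Astrocyte Ntrk2 (192% to 222%) and OPC Gfra1 (260% to 362%) lie above the grey range and above 100% in all 4 libraries.

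Ngfr, which encodes p75, was highest in cholinergic nuclei. It lies at chr11:95568818-95587735 on the minus strand. Cholinergic sums held Ngfr at 14.5, 16.6, 11.4 and 13.6 CPM, from 24, 29, 12 and 13 UMIs. GABAergic sums held 0.106, 0.148, 0.311 and 0.517 CPM, from 6, 8, 6 and 11 UMIs. The lowest cholinergic value was above the highest of any other class, 4.57 CPM from 2 UMIs in astrocytes of female 2. The ratio of cholinergic to GABAergic Ngfr was 136 (95% counting interval 54.3 to 408), 112 (49.8 to 283), 36.6 (12.7 to 119) and 26.3 (10.9 to 64.9). The fitted log2 fold was 5.70 ± 0.46 (edgeR adjusted p = 2.1e-11). Ngfr entered that fit through this class, and without the filter on low counts its fold was 5.68 ± 0.44 (edgeR adjusted p = 1.1e-36). Both folds depend on classes at or near 0 UMIs. With nuclei thinned before classing Ngfr did not pass the filter. Genes called higher in cholinergic nuclei made up 6.07%.

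Shares of cholinergic nuclei with an Ngfr UMI were 19.7% (11.5 to 30.5), 23.3% (14.8 to 33.6), 7.35% (3.58 to 13.1) and 11.5% (5.41 to 20.8), at median depths of 20338, 19329, 7299 and 8770 UMIs. GABAergic shares were 0.153%, 0.209%, 0.194% and 0.366%, at median depths of 12427, 11976, 5733 and 6133 UMIs. No OPC held an Ngfr UMI, which, taken as 3 nuclei of each library's OPCs, allows a share with a UMI of up to 1.74%, 1.75%, 1.99% and 0.997%.

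Ret, the tyrosine kinase of the GDNF-family receptors, was also highest in cholinergic nuclei. It lies at chr6:118151745-118197718 on the minus strand. Cholinergic sums held Ret at 9.64, 9.15, 11.4 and 16.8 CPM, from 16, 16, 12 and 16 UMIs. GABAergic sums held Ret at 1.48, 1.74, 2.23 and 1.93 CPM. All 4 cholinergic values were above every value of the other classes, whose highest was 3.51 CPM from 3 UMIs in OPCs of male 1. The cholinergic to GABAergic ratio of Ret was 6.49 (95% counting interval 3.55 to 11.2), 5.25 (2.88 to 8.97), 5.10 (2.45 to 9.85) and 8.70 (4.56 to 15.8). Ret missed the filter on low counts in the class fit, and without the filter its cholinergic log2 fold was 3.42 (edgeR adjusted p = 6.4e-21). That fold, too, depends on classes at or near 0 UMIs.

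Gdnf, the ligand that signals through Gfra1 and Ret, was high in the same nuclei. Cholinergic sums held Gdnf at 18.1, 21.2, 19.9 and 26.2 CPM and GABAergic sums at 1.06, 1.22, 1.40 and 1.74 CPM. The highest Gdnf value of any other class was 2.54 CPM, from 1 UMI in microglia of female 1. The ratio of cholinergic to GABAergic Gdnf was 17.0, 17.3, 14.2 and 15.1. The cholinergic log2 fold of Gdnf was 5.23 ± 0.31 (edgeR adjusted p = 3.1e-15). Gdnf, too, entered the fit through the class where it is high, and no fit without the filter is given for it. Its fold depends on classes at or near 0 UMIs, since glutamatergic and glial sums held at most 4 Gdnf UMIs.

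Gfra1, the co-receptor that binds GDNF, was highest in OPCs and low in cholinergic nuclei. It lies at chr19:58235604-58455909 on the minus strand. OPC sums held Gfra1 at 200, 185, 161 and 141 CPM. GABAergic sums held 55.4, 59.0, 44.6 and 54.1 CPM. Every OPC value was more than 2 times the highest value of any other class, 65.5 CPM in oligodendrocytes of male 1. The OPC log2 fold of Gfra1 was 2.44 ± 0.14 (edgeR adjusted p = 6.1e-16), where 8.92% of genes were called higher. After thinning, 35.3%, 31.1%, 28.9% and 21.4% of OPCs had a Gfra1 UMI (intervals between 15.9% and 43.1%), and 8.09%, 9.25%, 6.0% and 7.26% of GABAergic nuclei did. Nuclei too shallow to thin numbered 5, 7, 30 and 105 OPCs, and without thinning the OPC shares were 55.2%, 53.8%, 36.4% and 29.9%.

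Cholinergic sums held Gfra1 at 12.6, 24.0, 14.2 and 14.7 CPM, below the GABAergic value in each library. The cholinergic log2 fold of Gfra1 was -1.36 ± 0.20 (edgeR adjusted p = 1.9e-06). Microglia held 4.22, 13, 22.9 and 28.8 CPM, from 2, 6, 9 and 18 UMIs, and the log2 fold was -1.61 ± 0.28 (edgeR adjusted p = 1.3e-05). With nuclei thinned before classing the microglia fold of Gfra1 was -0.68 (edgeR adjusted p = 0.14). Oligodendrocytes held Gfra1 at 82.1% to 133% of the GABAergic level, above the 25.4% to 45.3% of the 4 neuronal genes, and the fold of 0.55 ± 0.13 did not reach 2-fold (edgeR adjusted p = 0.00064). Gfra1 and Ret were found together in 0 of 374 thinned cholinergic nuclei, with 10 holding each, where unrelated shares would give 0.292, so the count is too low to read.

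Gfra2, the co-receptor for neurturin, was highest in neurons other than cholinergic ones and in OPCs. It lies at chr14:70890120-70979838 on the plus strand. Glutamatergic sums held Gfra2 at 21.7, 20.3, 34.7 and 39.4 CPM. GABAergic sums held 22.4, 22.9, 23.4 and 25.2 CPM. OPC sums held 23.4, 15.1, 17.9 and 27.0 CPM. These 3 classes overlapped. The log2 folds of Gfra2 were 1.29 ± 0.16 in glutamatergic (edgeR adjusted p = 3.0e-08) and 1.06 ± 0.12 in GABAergic nuclei (edgeR adjusted p = 1.1e-08), where 5.11% of genes were called higher. The GABAergic fold was 0.99 without male 1 and 0.96 without male 2.

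Cholinergic sums held Gfra2 at 4.82, 5.15, 8.54 and 11.5 CPM, below the GABAergic value in each library. The cholinergic fold of -0.89 ± 0.26 did not reach 2-fold (edgeR adjusted p = 0.0052), and with scaling by total count it was -1.02. Astrocytes held Gfra2 at 5.03, 1.26, 8.40 and 13.7 CPM, from 5, 1, 6 and 6 UMIs. The astrocyte fold of Gfra2 was -1.19 ± 0.33 (edgeR adjusted p = 0.0032), where 11.6% of genes were called lower, and without male 2 it was -0.83 (edgeR adjusted p = 0.052).

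**Figure D2:**
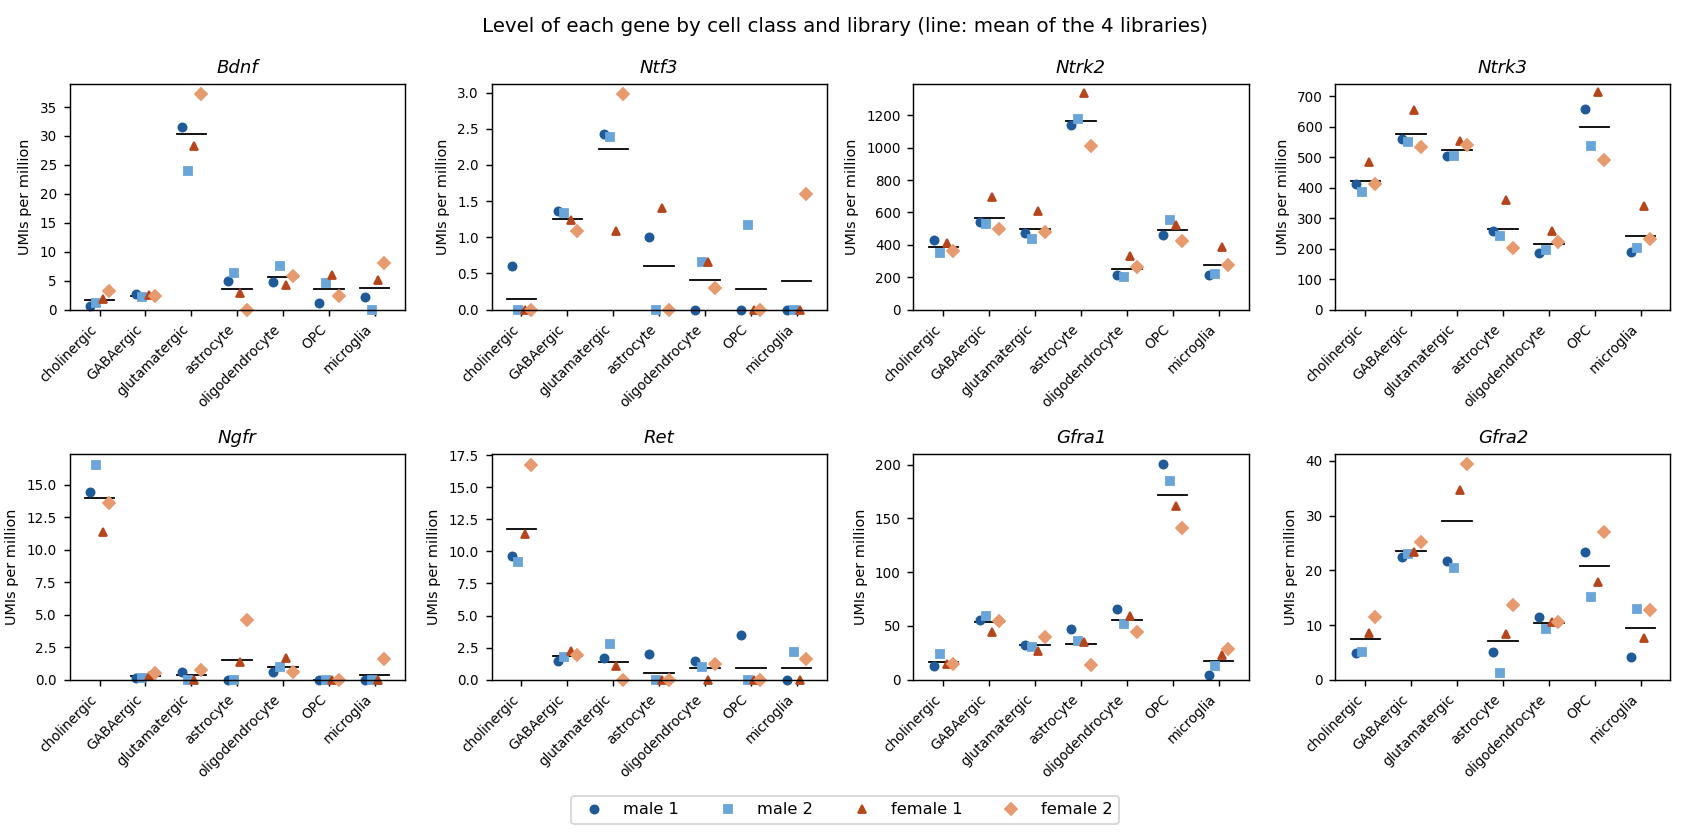
CPM (vertical axis, from 0, a separate scale for each gene) of the 8 genes in 7 cell classes, 1 point per library, with a line at the mean of the 4 libraries. Bdnf is highest in glutamatergic nuclei, Ngfr and Ret in cholinergic nuclei, Ntrk2 in astrocytes (1010 to 1338) and Gfra1 in OPCs (141 to 200), with no overlap with other classes.

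GABAergic nuclei were split by Drd1, Drd2, Tshz1, Moxd1 and Sst, and nuclei with none of these formed the remaining subgroup. Sums under 30 nuclei did not enter the fit, which left out female 1 for Drd1 (18 nuclei) and Sst (5 nuclei). The markers Tac1 (21.9 to 67.6 CPM in Drd1, 4.81 to 13.4 in Drd2 nuclei) and Penk (97.7 to 330 CPM in Drd2, 21.9 to 89.6 in Drd1 nuclei) differed between the striatal-type subgroups. Of the 8 genes, 5 passed the filter on low counts.

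Gfra2 was lowest in the Drd2 subgroup. Drd2 nuclei held Gfra2 at 10.2, 9.21, 15.9 and 9.09 CPM. Drd1 nuclei held 27.8, 26.5, 29.2 and 44.5 CPM, and Moxd1 nuclei 37.2, 35.7, 13.7 and 41.6 CPM, with only 5 UMIs in Moxd1 nuclei of female 1. The Drd2 values were below the Drd1 values in all 4 libraries (Drd1 nuclei of female 1 held 4 UMIs), and below the Moxd1 values in both males and female 2. The log2 fold of Gfra2 in the Drd2 subgroup was -1.33 ± 0.19 (edgeR adjusted p = 1.1e-06), where 0.814% of 13396 genes were called lower. It ranged from -1.42 to -1.16 over the alternatives.

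Gfra1 was also lower in the Drd2 subgroup, by less than 2-fold. Drd2 nuclei held Gfra1 at 24.6, 35.4, 7.33 and 32.5 CPM and the remaining GABAergic nuclei at 60.9, 63.4, 47.0 and 54.9 CPM, without overlap. The log2 fold of Gfra1 was -0.84 ± 0.14 (edgeR adjusted p = 2.5e-05), and without male 2 it was -1.11 (edgeR adjusted p = 0.00034). Ntrk2 was highest in the Moxd1 subgroup, at 672, 710, 953 and 771 CPM, with a log2 fold of 0.38 ± 0.07 (edgeR adjusted p = 4.8e-05).

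Ntrk3 differed among the subgroups by less than 2-fold. Tshz1 nuclei held Ntrk3 at 657, 699, 656 and 683 CPM (log2 fold 0.32 ± 0.06, edgeR adjusted p = 0.00031). Moxd1 nuclei held 523, 492, 465 and 453 CPM (-0.27 ± 0.07, edgeR adjusted p = 0.0045), below the Tshz1 nuclei in all 4 libraries. Ntf3 was called lower in the remaining GABAergic nuclei (-1.14 ± 0.35, edgeR adjusted p = 0.045), at 0.999, 1.09, 1.16 and 0.764 CPM, where 0.0746% of genes were called lower. The other subgroups held between 0 and 11 Ntf3 UMIs in a library, and the edgeR adjusted p for Ntf3 was 0.052 with the stricter class rule and 0.051 without female 2.

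None of the 5 genes tested was called in the Drd1, Tshz1, Moxd1 or Sst subgroup, where 1.41%, 2.7%, 4.76% and 1.22% of all genes were called. Of 31 other pathway genes tested, 1 was called in each of the Drd1, Tshz1 and Moxd1 subgroups and 0 in the other 3. In Tshz1 nuclei it was Sorcs2, which encodes a sorting receptor and was higher (1.13 ± 0.08, edgeR adjusted p = 3.0e-13), where 1.84% of genes were.

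**Figure D3:**
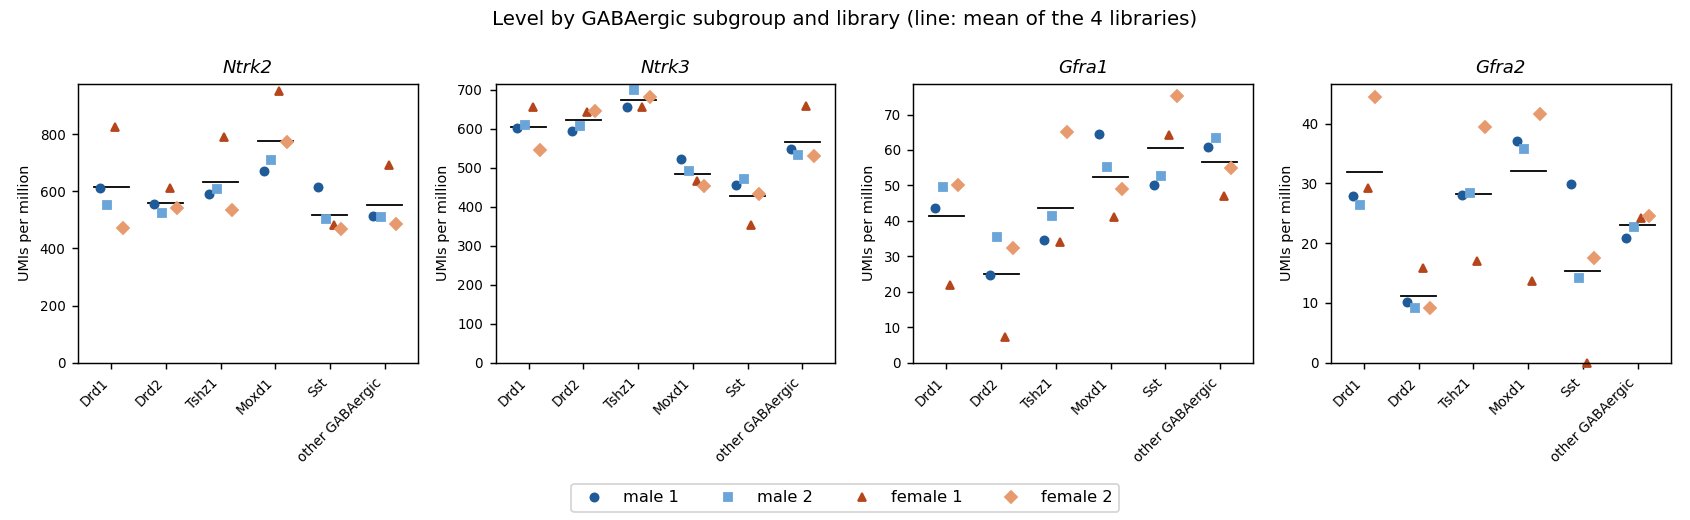
CPM (vertical axis, from 0) of Ntrk2, Ntrk3, Gfra1 and Gfra2 in 6 GABAergic subgroups, 1 point per library, with a line at the mean of the 4 libraries. Gfra2 is low in Drd2 nuclei (9.09 to 15.9), and the female 1 points of Drd1 (18 nuclei) and Sst (5 nuclei) are drawn but did not enter the fit.

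The other ligands, receptors and adaptors of the pathway were followed as a list of 40 genes, of which 29 were tested in the class fit. In cholinergic nuclei 5 of 29 were called, against 15.2% of all genes, and the list's median log2 fold was 0.05 against -0.08 for all genes. Gdnf is among the 5 and entered the fit through this class, so the count was in part set by the filter. Among those called higher were Gdnf and the docking protein gene Dok5 (1.06 ± 0.16), and those called lower were the sorting receptor gene Sorcs2 (-1.56 ± 0.14) and the adaptor gene Gab1 (-2.32 ± 0.25). In oligodendrocytes 7 of 29 were called, against 13.1% of all genes, with Gab1 (3.35 ± 0.12) and the phosphatase gene Ptpn11 (1.64 ± 0.07) among 5 called higher, as were 8.88% of all genes. In OPCs 5 of 29 were called, against 13.2%. The Shc-family adaptor gene Shc4 was higher there (5.75 ± 0.17), and Sort1, which encodes sortilin, was lower (-1.92 ± 0.12), as were 4.33% of all genes.

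In astrocytes 9 of 29 pathway genes were called, against 24.4% of all genes. Of these 4 were higher, among them Sorcs2 (2.10 ± 0.10) and Shc3 (1.45 ± 0.09), and 5 were lower. Over all genes 12.8% were called higher there and 11.6% lower. The log2 folds of the 29 ran from -4.08 to 2.10. In microglia 9 of 29 were called, against 19.3%. The adaptor genes Gab2 (2.07 ± 0.08) and Grb2 (1.39 ± 0.09) were among 4 called higher, as were 12% of all genes. The other 5 were lower, as were 7.39% of all genes, and the log2 folds of the 29 ran from -4.33 to 2.07. In glutamatergic nuclei 7 of 29 were called, against 14.8%, with 3 higher and 4 lower. Lingo1 (1.5 ± 0.10), which encodes a partner of p75, was higher, as were 5.62% of all genes. Gab1 was lower there (-2.97 ± 0.23), as were 9.22% of all genes. In GABAergic nuclei 4 of 29 were called, against 14.1%, and all 4 were lower, as were 9.01% of all genes.

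Across 12 cell groups (6 classes and 6 GABAergic subgroups, which share libraries), the gene whose mean log2 level followed each of the 8 most closely is given as a description. Bdnf was most like Sim1 (Pearson r = 0.98), Ret most like Cftr (0.97), Ntrk3 most like Nrg2 (0.95), and Ntrk2 most like Nrcam (0.95). Ngfr was most like Gm11906 (0.94). Ntf3 was most like Serpini1 (0.89), Gfra1 most like Zfp689 (0.88) and Gfra2 most like Gm28307 (0.87).

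To assess sex differences, male and female libraries were compared within each class, with folds male over female, and called at an adjusted p under 0.05 whatever the fold. None of the 8 genes was called in a class: 0 of 34 tests with edgeR, 3 at an unadjusted p under 0.05 and 0 with DESeq2. Over all genes, 0.0498% were called in cholinergic, 0.00545% in GABAergic, 0.0631% in glutamatergic, 0.0555% in astrocyte, 0.023% in oligodendrocyte, 0.095% in OPC and 0.0503% in microglia sums. With 2 libraries a sex this does not show that the levels are alike. A test of whether the sex difference in a class departed from the other classes called 0 of 49, with 9 at an unadjusted p under 0.05 and a smallest edgeR adjusted p of 0.23. Over all genes 0.0666% were called for such a departure in cholinergic, 0.0148% in GABAergic, 0.0961% in glutamatergic, 0.244% in astrocyte, 0.481% in oligodendrocyte, 0.141% in OPC and 0.458% in microglia nuclei.

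The smallest edgeR adjusted p between sexes was 0.26, for Gfra2 in glutamatergic nuclei. Male 1 and male 2 held 21.7 and 20.3 CPM, female 1 and female 2 34.7 and 39.4 CPM, without overlap (log2 fold -0.77 ± 0.19). Gfra1 in GABAergic nuclei stood at 55.4 and 59.0 CPM in male and 44.6 and 54.1 CPM in female libraries (0.29 ± 0.11, edgeR adjusted p = 0.33). Cholinergic Ngfr differed by 0.35 ± 0.36 (edgeR adjusted p = 0.81) and cholinergic Ret by -0.54 ± 0.39 (edgeR adjusted p = 0.72).

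The direction of some sex folds turned on 1 female library. GABAergic Ntrk2 stood at 540 and 530 CPM in male libraries, between 698 CPM in female 1 and 496 CPM in female 2. Its log2 fold between sexes was -0.10 ± 0.24 with both females, 0.32 without female 1 (edgeR adjusted p = 6.2e-16) and -0.35 without female 2 (edgeR adjusted p = 2.8e-10). Leaving out female 1 called 10 of the tests of these genes and leaving out female 2 called 9, whereas leaving out either male called 0. The lone female is then assumed to vary as the males do. Without female 1, 9999 genes were called in GABAergic sums, and without female 2, 11102.

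**Figure D4:**
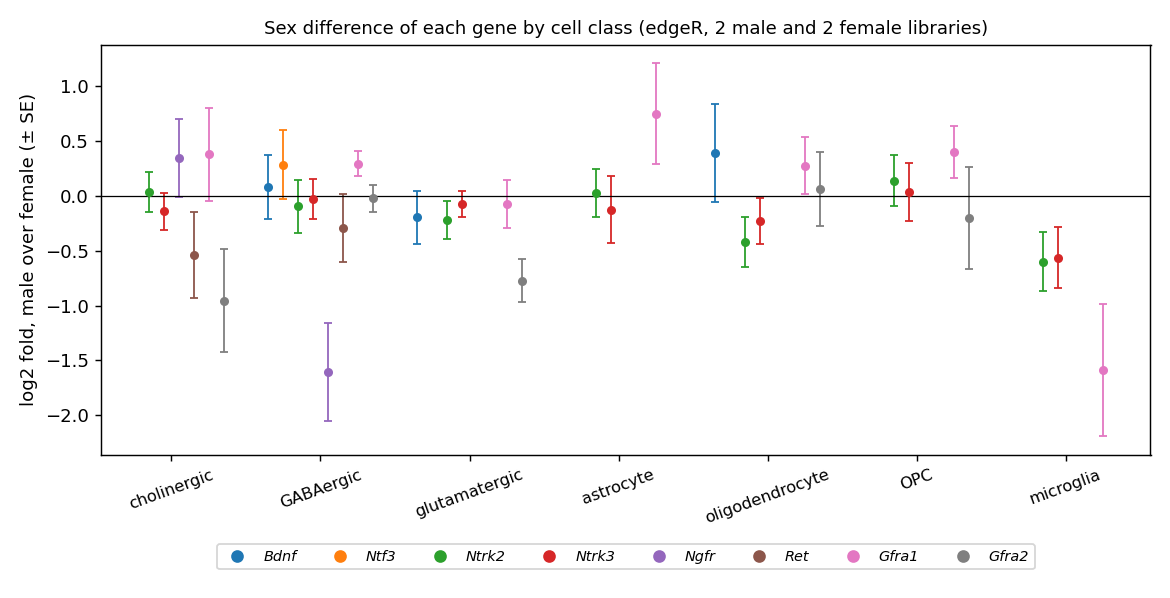
Log2 fold of male over female (vertical axis, points, with bars of 1 SE from edgeR) for each gene tested in each class, from 2 male and 2 female libraries. The folds lie between -1.61 (Ngfr in GABAergic nuclei) and 0.75 (Gfra1 in astrocytes), and none passed the adjusted p.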

How the data were processed

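Single-nucleus 3′ libraries from 2 males and 2 females were used. The authors deposited whole-number UMI counts per gene and barcode for each library. Build mm10, Seurat 5 and Cell Ranger 6.0.1 are named, without their roles, per the submitters' processing notes. The matrices were written by 3 versions of that program, per the file headers: 9.0.1 (male 1, male 2), 7.0.0 (female 1), 7.2.0 (female 2). Strand handling and the kit of each library are not given in the sources used here, and antisense genes overlap Ntrk2, Ntrk3, Bdnf and Gfra1. The deposited counts summed to 158132452, 144035342, 53098268 and 53679351 UMIs.

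Nuclei were kept with 500 to 8000 genes and under 5% mitochondrial counts. Classes needed at least 2 UMIs in total of Chat and Slc5a7 (cholinergic, which took precedence over the next 2 rules), Gad1 and Gad2, Slc17a6 and Slc17a7, Gja1 and Aqp4, Mog and Mag, Pdgfra and Cspg4, or Inpp5d and Csf1r; other readings of this order were not run. GABAergic subgroups needed at least 2 UMIs of Drd1, Drd2 or Moxd1, or 3 of Tshz1 or Sst, and nuclei meeting more than 1 were left out. Nuclei in more than 1 class were dropped (13.2%, 12.1%, 5.16% and 5.54%); no doublet caller was run. Counts were summed per library and class, with at least 30 nuclei a sum, and tested 2-sided with edgeR 4.0.16 (R 4.3.3, quasi-likelihood, TMM, filterByExpr, Benjamini-Hochberg over all genes), with library as a block for classes and subgroups and no block between sexes. DESeq2 1.42.0 was an alternative. The fits were tested on simulated data. A first simulation set unchanged genes to the arithmetic mean of the other classes, and the fit called many of them, since the contrast is against the mean of logs; with unchanged genes set to the mean of logs it did not.

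The 8 genes are always named, pathway genes from those called, and for likeness the leading genes by Pearson r. Coordinates are from GENCODE vM21. The genes and lists were chosen with earlier results of these data known. Naming Gdnf with its values followed from its call. Some results are not reported here.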

Additional observations from a re-analysis of the deposited data

How the results depend on the processing

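Class and subgroup results of the members were followed only where the main edgeR adjusted p was under 0.05. That choice itself favours a kept direction, so the counts do not measure how stable member results are in general. Of these class results 229 kept direction and call, 15 lost the call, 6 gained it and 1 reversed (Ntrk2 in glutamatergic nuclei, -0.075 with nuclei thinned before classing). Of the subgroup results 84 kept both, 2 lost the call and 1 gained it. Sex results were followed whatever their p, for genes above a limit on UMIs in each library of the class. Of these sex results, none of them called, 257 kept both, 15 gained a call with the same sign and 36 changed sign, some of these also with a call. With nuclei thinned before classing, Ngfr, Bdnf and Gfra2 did not pass the filter of the class fit. The thinned alternative could not be run for the subgroups, where too few nuclei remained. DESeq2 gave no adjusted p for Ntf3 in the remaining GABAergic subgroup. Where counts moved, the cause was not tested, except that thinning and leaving out libraries use fewer counts.

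The number of genes tested differed between settings here and below, so counts called are not shares. Thinning before classing left 6723 genes tested in the class fit, against 12901 in the main fit. Genes called were then 999 (main 1960) in cholinergic, 1036 (1822) in GABAergic and 527 (1914) in glutamatergic contrasts. They were 1967 (3147) in astrocyte, 985 (1709) in OPC and 1312 (2495) in microglia contrasts. No filter on low counts gave 3157 in GABAergic and 2913 in glutamatergic contrasts, of 26716 genes tested. In the remaining GABAergic subgroup, no filter gave 121 of 26180 genes tested and DESeq2 14 of 13396, against 45 of 13396. Leaving out 1 library gave 102 to 187 genes for Drd1, 210 to 351 for Drd2, 206 to 396 for Tshz1, 84 to 179 for Sst and 18 to 59 for the remaining GABAergic subgroup.

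Between sexes the main counts were 5 cholinergic, 1 GABAergic, 8 glutamatergic, 5 astrocyte, 3 oligodendrocyte, 9 OPC and 4 microglia genes. In the same order DESeq2 called 94, 880, 174, 30, 199, 75 and 25. Without the filter 19, 3, 297 (astrocyte), 351, 307 and 399 were called. With thinning 10, 4, 48, 3, 6, 5 and 9 were called. The stricter class rule gave 10, 2 and 17 in the 3 neuron classes, and median-ratio size factors gave 16 in OPCs. Leaving out 1 library gave 4 to 1644 cholinergic, 2 to 11102 GABAergic, 6 to 2414 glutamatergic, 1 to 1501 astrocyte, 4 to 4739 oligodendrocyte, 50 to 1804 OPC and 5 to 997 microglia genes, the high values without a female.

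The labels name no shared litter, batch or day for libraries of the same number, and same-number deviations correlated at -0.03 to 0.12, so the numbers were not taken to pair them. With the number as a replicate block 62 cholinergic, 4 GABAergic, 37 glutamatergic, 32 astrocyte, 168 oligodendrocyte and 151 OPC genes were called between sexes, none of them among the 8.

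For the sex difference of a class contrast the main counts were 9 cholinergic, 2 GABAergic, 13 glutamatergic, 33 astrocyte, 65 oligodendrocyte, 19 OPC and 62 microglia genes. Without the filter they were 36, 30, 40, 79, 113, 60 and 97, and with the stricter class rule 5, 4, 8, 5, 26, 1 and 4. With thinning they were 0, 4, 3, 10, 164 and 4 up to OPCs. Median-ratio factors and total-count scaling each gave 0 in GABAergic nuclei.

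Among log2 folds between sexes that changed sign, Gfra2 in GABAergic nuclei was 0.0084 with DESeq2, 0.0081 with median-ratio factors, 0.0066 with thinning and 0.060 without the filter, and Ntrk3 there 0.051 without the filter. With the stricter rule Ntrk2 in astrocytes was -0.069 and Ntrk3 in oligodendrocytes 0.059. With thinning Ntrk3 was 0.18 in cholinergic, 0.10 in glutamatergic and 0.028 in astrocyte nuclei, and Ntrk2 0.14 in glutamatergic nuclei and -0.21 in astrocytes. With total-count scaling, added after the data were seen, Ntrk2 was -0.0047 in cholinergic nuclei and -0.034 in astrocytes, Gfra2 -0.040 in oligodendrocytes and Ntrk3 -0.022 in OPCs.

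Leaving out 1 library, Ntrk2 ranged from -0.10 to 0.19 in cholinergic, -0.35 to 0.32 in GABAergic, -0.41 to 0.059 in glutamatergic, -0.15 to 0.27 in astrocyte and -0.030 to 0.42 in OPC sums. Ntrk3 ranged from -0.28 to 0.049, -0.20 to 0.27, -0.12 to 0.043, -0.46 to 0.39 and -0.24 to 0.45 in the same order. Gfra1 ranged from -0.15 to 0.78 in cholinergic and -0.22 to 0.22 in glutamatergic sums, Gfra2 from -0.020 to 0.067 in GABAergic and -0.10 to 0.22 in oligodendrocyte sums, and Bdnf from -0.071 to 0.27 in GABAergic and -0.40 to 0.014 in glutamatergic sums.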
